A study of Homo sapiens with 4 samples.

Results

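The aminoacyl-tRNA synthetases were examined in MDA-MB-231 cells, a human triple-negative breast cancer line, grown with or without long-term cadmium. The 36 genes were the rows of the RNA-seq count table whose Ensembl identifier carries the symbol of one of the listed synthetases, of 61541 genes in all. A symbol ending in 2 was taken as a mitochondrial enzyme, which gave 16 mitochondrial and 20 cytosolic genes. All 36 were detected and all were tested. The control group held 2 libraries from untreated cells of the line, and the cadmium-resistant group held 2 libraries from cells selected by serial passage in CdSO4 and then kept at 10 µM. Resistance was selected in 1 cell line, so the effect of the metal and that of selection over many passages cannot be told apart. The libraries are called control 2, control 3, cadmium 1 and cadmium 2 after the numbers in the table, and only the control labels name their replicates biological. The p-values therefore measure the spread between these libraries, part of which may be technical.

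Each synthetase joins 1 amino acid to its tRNAs, and so sets the supply of charged tRNA for translation. Cytosolic enzymes serve the ribosomes of the cytoplasm. A separate nuclear-encoded set is imported into mitochondria and charges the tRNAs that read the mitochondrial genome. GARS1 and KARS1 each encode both forms and were counted here as cytosolic, and EPRS1 carries glutamate and proline activities in 1 chain. Several cytosolic enzymes are held together with the scaffolds AIMP1, AIMP2 and EEF1E1 in the multisynthetase complex. When amino acids run short, uncharged tRNA activates the kinase GCN2, the factor ATF4 is translated, and ATF4 induces amino acid transporters, biosynthetic enzymes and many of the cytosolic synthetase genes. The mitochondrial synthetase genes are not known as a group to belong to that programme.

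Between 51934729 and 61916007 reads were assigned to genes in each library, and the 36 genes together took 0.445% to 0.578% of them. Library sizes were adjusted with the DESeq2 median-of-ratios size factors, and the values below are counts divided by these factors (normalized counts). VIM, CD44 and AXL, which mark this mesenchymal line, were abundant in all 4 libraries, while the hormone receptor genes ESR1 and PGR had at most 18.9 and 29.6 normalized counts. The epithelial gene CDH1 ran from 107 in control 2 to 615 in control 3, with 169 and 119 in the cadmium libraries. The leukocyte, endothelial and fibroblast genes PTPRC, PECAM1, COL1A1 and PDGFRB summed to 1370 and 2639 in the controls and to 1833 and 2107 in the cadmium libraries, and none of them was at 0. All 4 were higher in control 3 than in control 2, by unequal amounts. In control 2 and control 3, PTPRC had 1.89 and 144 normalized counts, and PECAM1 had 160 and 842. COL1A1 had 501 and 930, and PDGFRB had 708 and 723. The part of these 4 genes in the results below was not tested. Higher counts after cadmium were seen in MT2A and MT1X, which encode metal-binding metallothioneins, and in HMOX1, which encodes haem oxygenase 1. All 3 were called higher in the cadmium-resistant cells, by 2.06, 2.87 and 2.48 on the log2 scale (DESeq2 adjusted p = 9.41e-06, 3.48e-13 and 1.58e-08), although MT2A lost its call when either cadmium library was left out. In whole cultures, a change in RNA per cell and a change in the mix of cells cannot be told apart.

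No synthetase gene changed past the threshold in the cadmium-resistant cells. DESeq2 called 0 of 36 at an adjusted p below 0.1, against 1.14% of all 19816 genes tested (0.601% higher and 0.535% lower). A count of 0 of 36 is thus near the share of all genes. The lowest adjusted p among the members was 0.813, for VARS1. At an unadjusted p below 0.05 the DESeq2 count was 0 of 36, where 6.92% of all genes passed, and the edgeR quasi-likelihood test gave 1 of 36, where 7.39% passed. That 1 gene was VARS1, and after adjustment edgeR called 0% of the genes. Leaving out a cadmium library left the DESeq2 count at 0 of 36, where 0.114% and 0.107% of all genes were called. Without control 2 it was 3 of 36, against 14.8% of all genes, and without control 3 it was 16 of 36, against 31.2%. The share called thus rose over all genes too when 1 control was left. VARS1 was called in both fits at nearly the same log2 fold change (0.40 without control 2 and 0.41 without control 3). CARS2 was called in both with opposite signs (0.42 and -0.63). The lone control is assumed to vary like the cadmium libraries, so no change is read from these calls. With all 4 libraries the log2 fold changes ran from -0.66 for TARS3 to 0.51 for CARS1, so none reached a doubling or a halving. A 95% interval of each fold change was built from its DESeq2 standard error, assuming a normal distribution. With 2 libraries per group, whose spread may be partly technical, these intervals may be too narrow. They describe the fit and do not exclude a larger change in the cells. In 29 of 36 genes, 16 cytosolic and 13 mitochondrial, the interval left out both a doubling and a halving. CARS1, MARS1, TARS3, WARS1, PARS2 and YARS2 had intervals that reached one of these, and that of VARS2 reached both.

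The direction was positive in 24 of the 36 genes, against 47.4% of all genes tested. Of the cytosolic genes 15 of 20 lay above 0 (13 with TMM factors and 18 with upper-quartile factors), with a median log2 fold change of 0.20. Of the mitochondrial genes 9 of 16 did, with a median of 0.07, and the median over all genes tested was -0.02. The cytosolic median exceeded the mitochondrial median by 0.13, and without control 2 this difference turned to -0.09. The cytosolic median was 0.10 without control 2 and 0.09 without cadmium 1, and the mitochondrial median was 0.19 without control 2 and -0.06 without control 3. Groups that did not overlap were about as frequent as elsewhere in the table. In 10 members both cadmium libraries lay above both controls, against 20.3% of all genes, and in 4 members both lay below, against 19.9%. Together these were 14 of 36 members, against 40.3% of all genes.

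**Figure D1:**
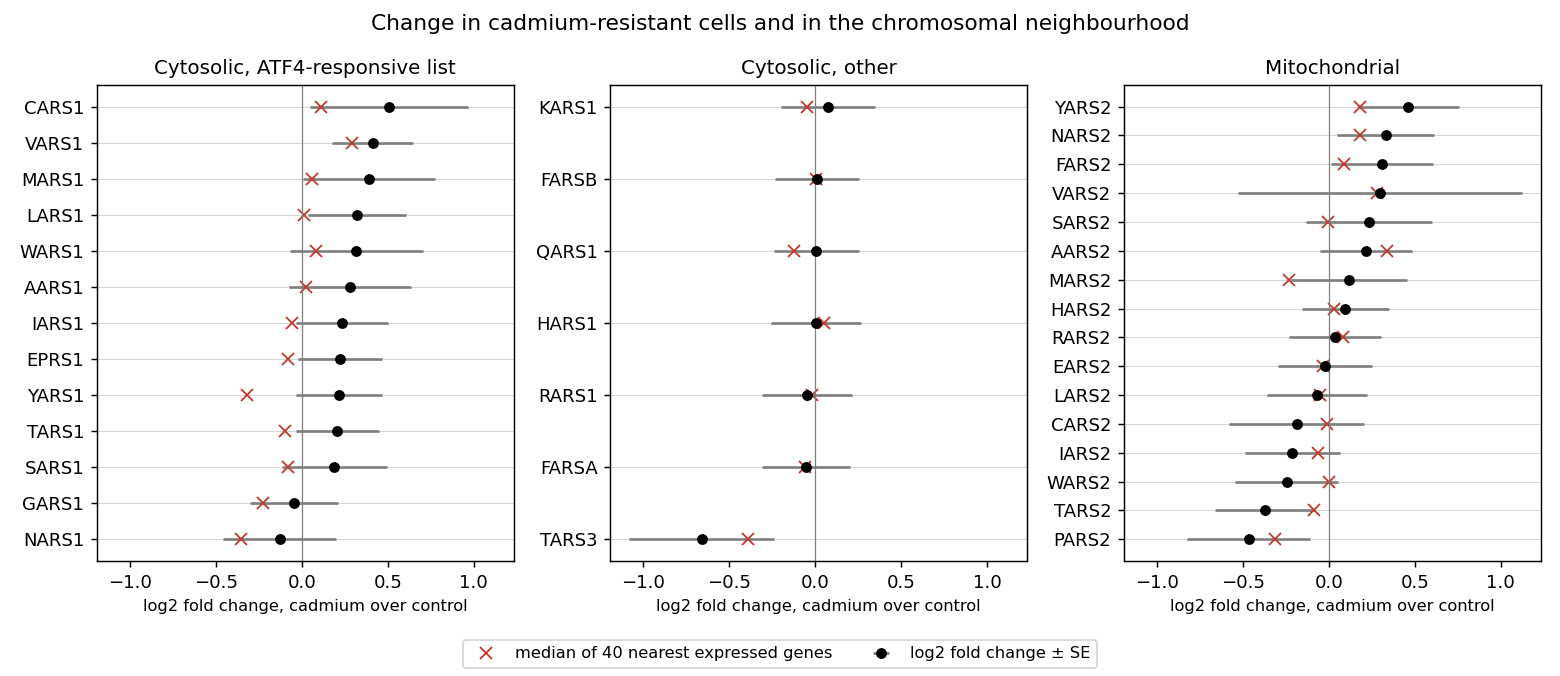
Log2 fold change of each synthetase gene in cadmium-resistant over control cells (points) with its DESeq2 standard error (bars), in 3 panels of cytosolic genes of the ATF4-responsive list, other cytosolic genes and mitochondrial genes. Crosses give the median log2 fold change of the 40 nearest expressed genes on the chromosome. The genes run from -0.66 (TARS3) to 0.51 (CARS1), and all 13 genes of the first panel lie to the right of their cross.

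Among the cytosolic enzymes, VARS1 had the lowest p. The gene for valyl-tRNA synthetase had 16088 and 16206 normalized counts in the controls and 21301 and 21664 in the cadmium libraries. Both groups were tight and did not overlap. The log2 fold change was 0.41 ± 0.24 (SE, n = 2 per group) with a DESeq2 p of 0.0808 before adjustment and 0.813 after it. VARS1 lies on chromosome 6, and its 40 nearest expressed genes had changed by a median of 0.29 in log2, which leaves 0.12 for VARS1 above its surroundings. The chromosome carries 5 members, VARS1, AARS2, FARS2, RARS2 and VARS2, and all 5 had log2 fold changes above 0 (0.04 to 0.41). Relative to their neighbourhoods 3 of these 5 lay above 0, and AARS2 and RARS2 lay below.

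Another 4 cytosolic genes had groups that did not overlap, each by a smaller margin. LARS1, leucyl-tRNA synthetase, had 9801 and 12865 in the controls and 15374 and 12964 in the cadmium libraries, and its log2 ratio was 0.32 ± 0.28. Control 3 and cadmium 2 were nearly equal. For EPRS1, the glutamyl-prolyl enzyme, the counts were 14739 and 15852 against 18714 and 16978, and the log2 fold change was 0.22 ± 0.24. TARS1, threonyl-tRNA synthetase, had 31824 and 30168 in the controls and 37074 and 34481 in the cadmium libraries, which is 0.21 ± 0.24 in log2. YARS1, tyrosyl-tRNA synthetase, measured 11182 and 9915 against 12731 and 11792, a log2 fold change of 0.22 ± 0.25. In each of these genes the standard error was about as large as the change.

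In a further 4 cytosolic genes control 2 was lower than control 3 by more than 1.5-fold, and the controls differed by more than the groups did. On the log2 scale the latter also held in LARS1 and in every other cytosolic gene except EPRS1, IARS1, TARS1, VARS1 and YARS1. CARS1, cysteinyl-tRNA synthetase, had 3506 normalized counts in control 2 and 9477 in control 3, beside 9900 and 8570 in the cadmium libraries. Its log2 fold change of 0.51 ± 0.46 therefore rested on control 2 alone, and without that library it was -0.04. MARS1, methionyl-tRNA synthetase, had 10189 and 20377 in the controls and 21840 and 18218 after selection (0.39 ± 0.38 on the log2 scale). AARS1, alanyl-tRNA synthetase, gave 8124 and 14080 against 15138 and 11831 (0.28 ± 0.35). WARS1, the interferon-inducible tryptophanyl enzyme, had 4193 and 8370 in the controls and 8594 and 7045 in the cadmium libraries (0.32 ± 0.39). In all 4 genes control 2 was the lowest library and control 3 fell between the cadmium libraries. SARS1, seryl-tRNA synthetase, gave 12881 and 17713 against 19737 and 15134, and IARS1, isoleucyl-tRNA synthetase, gave 24452 and 28383 against 34015 and 28112. Their log2 fold changes were 0.19 and 0.23, with control 2 lowest and control 3 between the cadmium libraries.

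The remaining cytosolic genes were flat or lower. NARS1, asparaginyl-tRNA synthetase, had 8924 and 5543 in the controls and 7101 and 6140 in the cadmium libraries, so the cadmium values lay between the controls (log2 fold change -0.13 ± 0.33). For GARS1, glycyl-tRNA synthetase, the counts were 16837 and 19774 against 18877 and 16611 (-0.04 ± 0.26). FARSA and FARSB, which encode the subunits of the phenylalanyl enzyme, had log2 fold changes of -0.06 and 0.01, and KARS1, QARS1 and RARS1 had 0.08, 0.01 and -0.05. The sign of NARS1, FARSA, GARS1, QARS1, RARS1 and HARS1 changed under another scaling or against their neighbourhood, so no direction is given for them. TARS3, a second threonyl enzyme of the cytoplasm, was the exception to this flat group, with 411 and 239 in the controls and 229 and 183 in the cadmium libraries. Its groups did not overlap, its log2 fold change was -0.66 ± 0.42, and its DESeq2 adjusted p was 0.894. Control 2 stood above the other 3 libraries, and without it the log2 fold change was -0.22.

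The mitochondrial genes held values on both sides of 0. YARS2 had 812 and 1065 normalized counts in the controls and 1260 and 1326 in the cadmium libraries, which gave 0.46 ± 0.29 in log2 (DESeq2 adjusted p = 0.894). NARS2 had 808 and 984 against 1118 and 1134 (0.33 ± 0.28), and FARS2 had 936 and 726 against 1084 and 974 (0.31 ± 0.30). These 3 genes, AARS2 and HARS2 had both cadmium libraries above both controls. In the other direction, PARS2 gave 587 and 386 in the controls and 352 in each cadmium library (-0.47 ± 0.36). TARS2 gave 2714 and 1996 against 1754 and 1890 (-0.37 ± 0.29). PARS2, TARS2 and WARS2 had both cadmium libraries below both controls, and in all 3 control 2 stood above the other 3 libraries. The log2 fold changes of AARS2 and WARS2 were 0.22 and -0.24. In IARS2, LARS2, EARS2, MARS2, CARS2 and RARS2 the groups overlapped, and the log2 fold changes ran from -0.21 to 0.12.

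The controls differed from each other more than the cadmium libraries did. Control 2 and control 3 differed by more than 1.5-fold in 9 of the 36 genes, against 33% of 12924 expressed genes, those averaging at least 100 normalized counts. The cadmium libraries differed by that much in 0 of 36 members and in 2.4% of those genes. Within the cytosolic set, 2 kinds of gene differed between the controls in opposite directions. Of the 13 genes on a list of cytosolic synthetases known to respond to ATF4 (AARS1, CARS1, EPRS1, GARS1, IARS1, LARS1, MARS1, NARS1, SARS1, TARS1, VARS1, WARS1 and YARS1), 10 were higher in control 3 than in control 2, where 49.4% of all genes were, and the median log2 ratio of control 3 to control 2 was 0.23. Of the other 7 cytosolic genes, 6 were higher in control 2 (median log2 ratio -0.28), and of the 16 mitochondrial genes 13 were (median -0.37), where 50.6% of all genes were. CARS2 had the largest such excess, with 3989 in control 2 and 1943 in control 3 beside 2679 and 2531 in the cadmium libraries. Each comparison is between 2 libraries, so it has no replicate check.

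**Figure D2:**
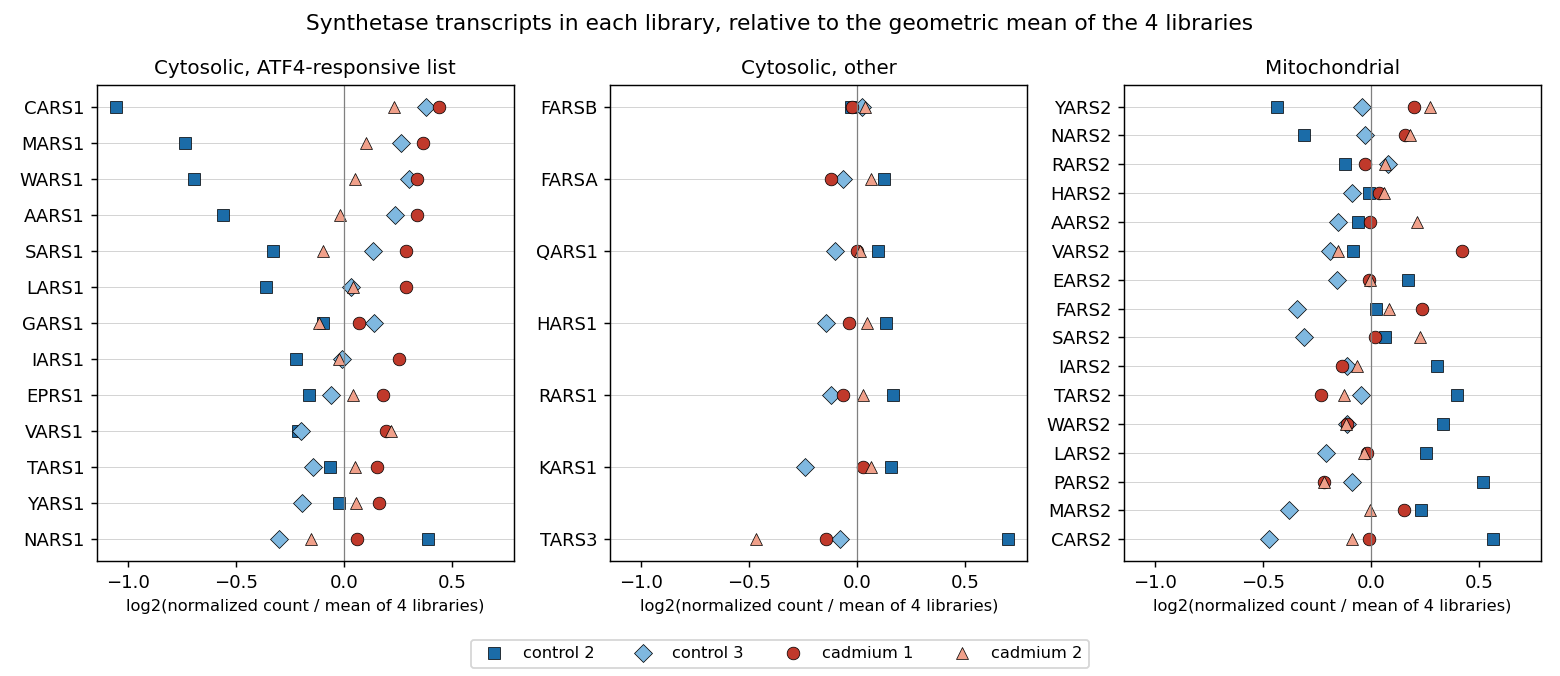
Log2 normalized count of each synthetase gene in each library, relative to the geometric mean of the 4 libraries, in the same 3 sets of genes. Squares and diamonds are control 2 and control 3, circles and triangles cadmium 1 and cadmium 2. Control 2 is far to the left for CARS1, MARS1, WARS1 and AARS1, and to the right for CARS2, PARS2 and TARS3.

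The library that stood apart was usually control 2. A library was counted as standing apart where its distance to the nearest of the other 3 was larger than the range of those 3. Over the whole family control 2 was the lowest in this way in 6 of 36 genes, where 14.5% of the expressed genes were, and the highest in 10 of 36, where 26.5% were, so the family as a whole was near the share of all genes. Control 2 stood apart as the lowest library in 5 of the 13 ATF4-responsive genes (AARS1, CARS1, LARS1, MARS1 and WARS1), in 0 of the other 7 cytosolic genes and in 1 of the 16 mitochondrial genes. It stood apart as the highest in 1, 2 and 7 genes of these sets. Control 3 stood apart as the lowest in 5 members, against 6.75%, and as the highest in 0, against 10.2%. A cadmium library stood apart in 3 members, AARS2, IARS1 and VARS2, against 7.19% of those genes.

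The medians by library restate this split from the same counts. Each gene is set relative to its control mean, so its 2 controls lie on either side of 0. Relative to the control mean, the ATF4-responsive set had median log2 values of -0.12 and 0.11 in control 2 and control 3, and 0.37 and 0.15 in cadmium 1 and cadmium 2. The cadmium libraries thus lay above both controls, but cadmium 2 exceeded control 3 by less than the controls differed. For the other 7 cytosolic genes the medians were 0.13, -0.15, -0.04 and 0.03, and for the mitochondrial genes 0.17, -0.20, 0.04 and 0.01, so in both sets the cadmium values lay between the controls. The cytosolic median minus the mitochondrial median was -0.19 and 0.21 in the controls, and 0.23 and 0.08 in the cadmium libraries. Control 3 therefore fell between the cadmium libraries on this measure.

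**Figure D3:**
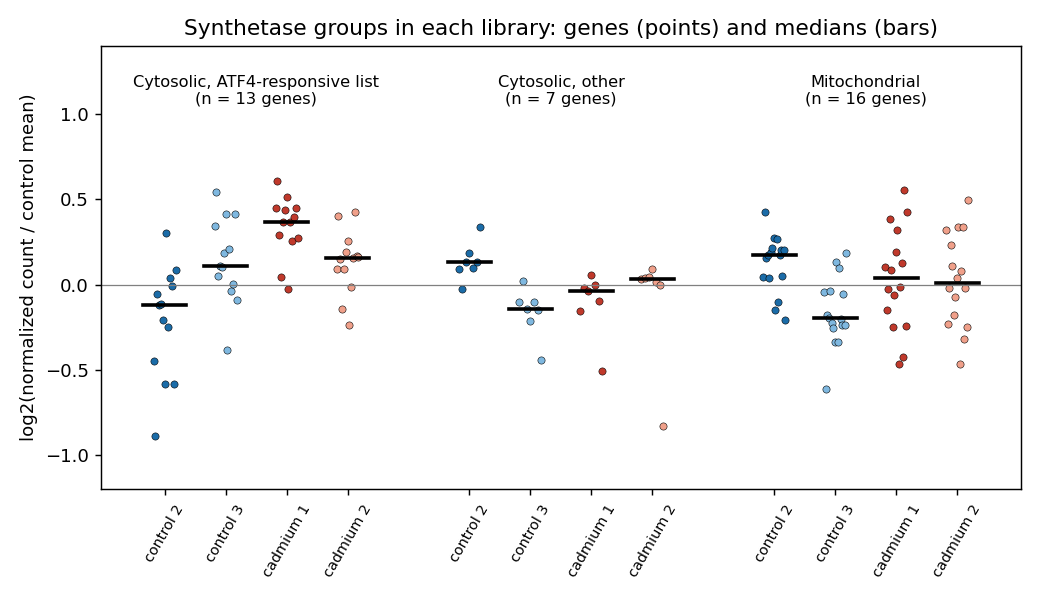
Log2 normalized count of each synthetase gene relative to its control mean (points) and the median over the genes of a set (bars), in each of the 4 libraries. For the 13 ATF4-responsive genes the medians are -0.12, 0.11, 0.37 and 0.15 from left to right, and for the 16 mitochondrial genes the highest median is that of control 2 (0.17).

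By the group comparison, 11 of the 13 ATF4-responsive genes lay above 0 (median log2 fold change 0.23), and 4 of the other 7 cytosolic genes did (median 0.00). Without control 2 these were 7 of 13 (median 0.13) and 5 of 7 (median 0.098), so the contrast was much smaller without that library. Without cadmium 1 the list median was 0.15. Without control 3 the medians were 0.41 and -0.14. Against the median of the 40 nearest expressed genes, 13 of 13 ATF4-responsive genes lay above 0 with a median of 0.29, as did 4 of the other 7. Over all expressed genes 50.4% lay above their neighbourhood. Without control 2 the list count was 10 of 13 with a median of 0.087, without cadmium 1 the median was 0.14, and without control 3 it was 0.58. The 2 genes of the list whose values were below 0 before this centring, GARS1 and NARS1, lay in regions with medians of -0.22 on chromosome 7 and -0.35 on chromosome 18, and exceeded them by 0.18 and 0.23. The mitochondrial genes lay above their neighbourhood in 8 of 16 cases, with a median of -0.0022. These are counts and medians over a list of genes that share libraries, and no test was run on them.

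Most promoters read for the ATF4-responsive genes hold letters that the other synthetase genes mostly lack. ATF4 pairs with C/EBP factors and binds a composite element whose core is written here as TGATGNAA. Windows from 250 bases before to 50 bases after the start site were read from RefSeq (GRCh38.p14) for 30 of the 36 genes, and both strands were searched. LARS1, TARS3, VARS1, YARS1, AARS2 and VARS2 had no window. The core was found in 7 of the 10 ATF4-responsive genes with a window, in 0 of the other 6 cytosolic genes and in 1 of 14 mitochondrial genes, YARS2. Of all 27305 genes with a window 4.46% held it, and 3.62% of all windows did. EPRS1, SARS1 and WARS1 are on the list and had a window without the core. The list names genes already known to respond to ATF4, so its share is not independent of that knowledge. The 8 stretches with a match are shown, each 30 bases long on the strand of its gene. The core or its reverse complement is in capitals.

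AARS1 (chr16:70289675-70289704, minus strand): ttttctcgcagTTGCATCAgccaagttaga
CARS1 (chr11:3057407-3057436, minus strand): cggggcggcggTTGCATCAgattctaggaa
GARS1 (chr7:30594834-30594863, plus strand): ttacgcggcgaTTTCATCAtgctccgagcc
IARS1 (chr9:92293692-92293721, minus strand): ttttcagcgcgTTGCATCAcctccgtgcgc
MARS1 (chr12:57488053-57488082, plus strand): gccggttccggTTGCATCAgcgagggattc
NARS1 (chr18:57621804-57621833, minus strand): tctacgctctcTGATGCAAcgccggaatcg
TARS1 (chr5:33440956-33440985, plus strand): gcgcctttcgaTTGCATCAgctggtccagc
YARS2 (chr12:32756076-32756105, minus strand): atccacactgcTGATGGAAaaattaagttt

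In 6 of the 7 cytosolic genes the core reads TTGCATCA or its reverse complement TGATGCAA, and GARS1 has TTTCATCA. It begins within 33 bases before to 15 bases after the start site in CARS1, GARS1, IARS1, MARS1, NARS1 and TARS1, and at -187 in AARS1. In NARS1 and TARS1 it lies in the first transcribed bases. These positions count from the RefSeq start. The AARS1 stretch lies inside the Ensembl bounds of that gene, whose outermost start is at 70289707, so its distance depends on the start used. The YARS2 match, TGATGGAA, begins at -197. A match is a string of letters and not a measured site, and GARS1 and NARS1 hold one while their log2 fold changes were -0.04 and -0.13.

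The core of the metal response element, the site of the zinc- and cadmium-responsive factor MTF-1, was searched in both of its forms. The paper cites work in which MTF-1 under cadmium did not act through the standard element. The first form, TGCACNC, was found in 1 of 10 ATF4-responsive genes with a window (NARS1) and 0 of 6 other cytosolic genes. It was also in 3 of 14 mitochondrial genes (CARS2, RARS2 and WARS2), and in 14.4% of all genes.

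The second form of the metal response element, TGCGCNC, was found in 1 of 10 ATF4-responsive genes (IARS1) and 1 of 6 other cytosolic genes (HARS1). It was also in 5 of 14 mitochondrial genes (CARS2, FARS2, IARS2, RARS2 and YARS2), and in 23.0% of all genes. The interferon-stimulated response element, searched as a GAAA repeat with a gap of 2 bases, was found in WARS1 and EARS2, and in 4.38% of all genes.

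Levels were compared between genes as normalized reads per kilobase of exon, averaged over the 4 libraries. TARS1 had the highest level at 7843, and the medians were 1488 for the cytosolic genes and 276 for the mitochondrial genes. The summed level of the cytosolic set was 5.07 and 6.69 times that of the mitochondrial set in the controls and 7.15 and 6.41 times in the cadmium libraries, so control 3 lay between the cadmium libraries. Of 18 pairs of a cytosolic and a mitochondrial gene for the same amino acid, 16 had the higher level in the cytosolic gene. The exceptions were TARS3, at 59.6 reads per kilobase, and IARS1, whose level was 0.494 times that of IARS2. IARS2 had the highest mitochondrial level at 2597. The table sums exons over every annotated transcript, which gives IARS1 22418 bases. With the length of the Ensembl canonical transcript in GENCODE v44, a choice made after seeing the data, IARS1 was at 2.11 times IARS2, and 17 of 18 pairs favoured the cytosolic gene. In these counts EPRS1, FARS2 and TARS2 each recur, so the 18 pairs are not separate comparisons. The log2 fold change was higher in the cytosolic gene of the pair in 10 of 18 pairs and lower in 8. The differences ran from -0.46 for NARS1 against NARS2 to 0.70 for CARS1 against CARS2.

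**Figure D4:**
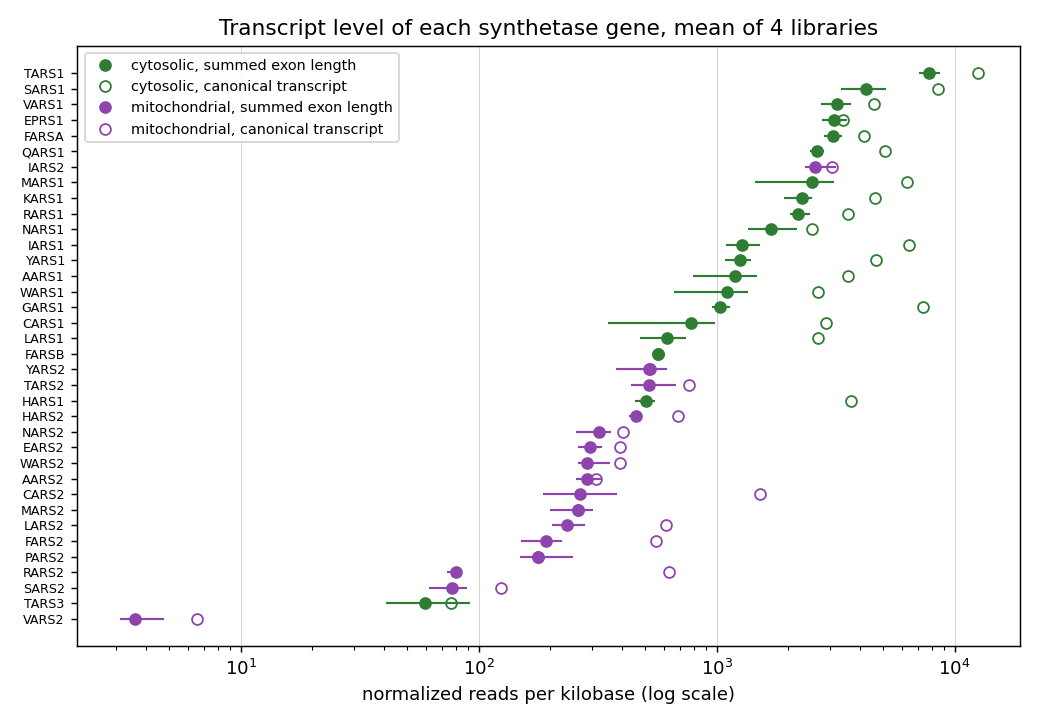
Transcript level of each synthetase gene in normalized reads per kilobase on a log axis, as the mean of 4 libraries. Filled circles use the summed exon length of the table, with lines from the lowest to the highest library, and open circles use the canonical transcript. Cytosolic genes (green) fill the top with TARS1 at 7843, and IARS2 at 2597 is the highest mitochondrial gene (purple).

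Reads that overlap more than 1 gene were not counted, which matters for genes that share exons with a neighbour. In 7 members more than 5% of the exon length was shared with another gene, and 14 members shared none. VARS2 shares 63.0% of its exon length with ENSG00000288473 and had 21.8, 20.2, 30.9 and 20.7 normalized counts, the lowest level of the family, so its level is uncertain. SARS2 shares 48.2% with ENSG00000269547 and had 248 and 191 in the controls and 240 and 277 in the cadmium libraries (log2 fold change 0.24 ± 0.37). YARS2 shares 18.1% with ENSG00000286950, which had no reads. MARS1 shares 13.3% with ARHGAP9, DDIT3 and MIR6758, and DDIT3, the gene for the stress factor CHOP, had 404 and 951 normalized counts in the controls and 1480 and 1155 in the cadmium libraries. WARS1 shares 10.6% with ENSG00000258666 and WDR25. HARS1 and HARS2 are neighbours on chromosome 5. HARS1 shares 8.46% of its exon length, 1090 of 1198 shared bases with WDR55 and the rest with HARS2. HARS2 shares 6.99%, 152 of 260 shared bases with ZMAT2 and the rest with HARS1. HARS1 had 7813 and 6449 against 6944 and 7356, and HARS2 had 1688 and 1598 against 1741 and 1771, with log2 fold changes of 0.00 ± 0.26 and 0.10 ± 0.25.

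None of the partner genes of the synthetases was called. Within the multisynthetase complex the 7 enzymes (EPRS1, IARS1, KARS1, LARS1, MARS1, QARS1 and RARS1) had log2 fold changes around a median of 0.22, and the scaffold genes AIMP1, AIMP2 and EEF1E1 had 0.09, -0.22 and 0.21. The 13 cytosolic genes outside the complex had a similar median of 0.19. By structural class, the 9 cytosolic class I genes had a median of 0.32 and the 10 class II genes 0.01, with EPRS1, which holds both folds, in neither. The class I and class II medians were 0.11 and 0.01 without control 2, and 0.16 and 0.03 without cadmium 1. For the complex and the cytosolic genes outside it, the medians were 0.13 and -0.02 without control 2. Without cadmium 1 the medians of the complex and of those genes were 0.089 and 0.04. DESeq2 called 0 of 4 genes that complete mitochondrial charging (QRSL1, GATB, GATC and MTFMT), 0 of 3 that clear mischarged tRNA, 0 of 2 for tRNA end maturation and export, 0 of 4 cytosolic elongation factor genes with reads and 0 of 9 mitochondrial translation factor genes. With 1.14% of all genes called, 0 calls in lists this short is near the share of all genes. EEF1G was listed at 0 in all 4 libraries and was not tested. XPOT, which exports tRNA from the nucleus, had 11157 and 19756 in the controls and 21498 and 17804 in the cadmium libraries, with control 2 lowest as in MARS1.

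In the amino acid response, 3 of 15 genes were called, all higher, against 1.14% of all genes. These calls did not hold in every fit that left out 1 library, and the share of all genes called changed with the library too. The median log2 fold change of these genes was 0.27 without cadmium 1 and 0.61 without cadmium 2. It was 0.47 without control 2 and 0.93 without control 3. SLC7A11, which encodes the cystine transporter, had 1860 and 2996 normalized counts in the controls and 8075 and 9674 in the cadmium libraries (log2 fold change 1.87, DESeq2 adjusted p = 1.77e-05). CTH, cystathionine gamma-lyase, which makes cysteine, had 383 and 478 against 1200 and 954 (1.32, DESeq2 adjusted p = 0.0056). ASNS, asparagine synthetase, had 75.7 and 177 against 510 and 343 (1.76, DESeq2 adjusted p = 0.0539). Groups did not overlap in 10 of the 15 genes, 9 of them higher, against 40.3% of all genes. SLC7A11 and CTH supply cystine or cysteine, the amino acid that CARS1 uses. The median log2 fold change of the 15 genes was 0.37, and 12 of them were higher in control 3 than in control 2. ATF4 had 13593 and 26252 in the controls and 26363 and 23389 in the cadmium libraries (log2 fold change 0.32), so that control 2 was lowest here as well. For DDIT3 the log2 fold change was 0.96 (DESeq2 adjusted p = 0.600). Whether the synthetases differ in response from these other genes of the programme was not tested.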

How the data were processed

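RNA-seq libraries of control (2) and cadmium-resistant (2) MDA-MB-231 cells were analysed. As the methods and the file header state, the authors trimmed read pairs with bbduk, aligned them to hg38 with hisat2 and counted them with featureCounts 2.0.1 on Ensembl 105; the deposited values are raw counts per gene. Default counting ignored strand, dropped reads mapping or overlapping more than once, and counted mates separately (70.6% to 71.5% of counts from 1 to 20 were even), so counts overstate fragments. The control columns are numbered 2 and 3 and the labels 1 and 2, so these columns were matched to the group only. Symbols matched 61369 of 61541 identifiers. DESeq2 1.42.0 in R 4.3.3 was fitted to the whole table (design: group, two-sided Wald test, Benjamini-Hochberg adjustment, threshold 0.1), after a filter on mean normalized counts below 7.69. Alternatives were edgeR 4.0.16 (quasi-likelihood, TMM), TMM and upper-quartile factors, no filter, at least 10 counts in 2 libraries, halved counts, a threshold of 0.05, centring on the 40 nearest expressed genes (mean normalized count of at least 100), and leaving out each library; canonical transcript length was added after seeing the data. The fit was tested on simulated data. Values in every library are given for the 8 cytosolic and 6 mitochondrial genes with the largest log2 fold changes, for genes with over 5% of exon length shared, and for genes that carry a result; the latter were chosen after their values were seen. The members and lists were chosen with earlier results of these data known.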

Additional observations from a re-analysis of the deposited data

How the results depend on the processing

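The count of synthetase genes called by DESeq2 was 0 under every alternative that kept all 4 libraries, with a lowest member adjusted p of 0.602. It ran from 0 to 16 when 1 library was left out. It was 0 without either cadmium library, 3 without control 2 (VARS1, YARS1 and CARS2, all higher, where 14.8% of all genes were called) and 16 without control 3 (9 higher and 7 lower, where 31.2% were). With 1 library in a group, the lone sample is assumed to vary like the other group. Leaving out a library moved the cytosolic median between 0.085 and 0.26, the mitochondrial median between -0.06 and 0.19, and their difference between -0.085 and 0.23, and 20 of the 36 genes changed sign in at least 1 of these fits. Their log2 fold changes ran from -0.063 to 0.72 for AARS1, -0.039 to 1.39 for CARS1, -0.16 to 0.042 for FARSA, -0.025 to 0.032 for FARSB, -0.16 to 0.064 for GARS1, -0.14 to 0.15 for HARS1, -0.12 to 0.29 for KARS1, -0.026 to 0.96 for MARS1, -0.44 to 0.25 for NARS1, -0.10 to 0.11 for QARS1. The other genes that changed sign ran from -0.20 to 0.098 for RARS1, -0.024 to 0.43 for SARS1, -0.099 to 0.89 for WARS1, -0.63 to 0.42 for CARS2, -0.19 to 0.15 for EARS2, -0.42 to 0.0093 for IARS2, -0.29 to 0.18 for LARS2, -0.17 to 0.45 for MARS2, -0.063 to 0.13 for RARS2 and -0.023 to 0.55 for VARS2. TMM factors turned HARS1 to -0.0028 and QARS1 to -0.00060. Upper-quartile factors, which moved the median of all genes by 0.06, turned FARSA to 0.0045, GARS1 to 0.015, RARS1 to 0.011 and EARS2 to 0.037. Relative to the 40 nearest expressed genes, FARSA was at 0.0023, GARS1 at 0.18, HARS1 at -0.049, NARS1 at 0.23, AARS2 at -0.12, EARS2 at 0.010 and RARS2 at -0.049. The ratio of the cytosolic to the mitochondrial median level was 5.39 per summed exon length and 8.40 per canonical transcript. The cause of these shifts was not tested. No paired analysis was possible because the numbers on the control columns differ from those in the labels. The standard errors of the synthetase log2 fold changes ran from 0.24 to 0.82, which sets the precision of these values.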
